A study of Mus musculus with 9 samples.

Results

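A group of 6 microRNAs (miRNAs) linked to synapses and dendritic spines, mmu-miR-134, mmu-miR-138, mmu-miR-188-5p, mmu-miR-329, mmu-miR-381 and mmu-miR-485 (the species prefix is left out below), was followed in mouse primary visual cortex after visual deprivation. They were taken by exact probe name from the 611 mouse miRNA names on the arrays, as miRNAs reported to act on spines, dendrites or synaptic strength downstream of neuronal activity. All 6 were on the array and entered the test, among 318 mouse miRNAs that the scanner program detected on every array of 1 or more groups.

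The tissue came from C57BL6 mice killed at postnatal day 28, and 3 arrays were hybridised per group with total RNA. Dark-reared mice were kept without light from birth. Monocularly deprived mice had a normal light cycle and 1 eyelid sutured from day 24, and the cortex opposite that eye was taken. Control mice had the normal light cycle throughout. The labels name no allele or transgene. They do not say whether a replicate is 1 animal or a pool, so a p-value covers only the spread between these arrays, technical or not. The 4 neuronal marker miRNAs, miR-124, miR-9, miR-128 and miR-137, were tested and none lay at the floor throughout any group, with a summed scaled signal of 67.1 to 68.0 in dark-reared, 56.8 to 80.6 in monocularly deprived and 69.3 to 70.1 in control cortex.

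A miRNA guides a silencing complex to messenger RNAs through its seed, bases 2 to 8, and lowers their translation or stability. In dendrites some miRNAs hold back the local synthesis of proteins that enlarge or prune spines, and synaptic activity can lift or strengthen that block. In visual cortex, closing an eye during the postnatal critical period remodels spines and shifts responses toward the open eye. Most of these roles were first described in cultured rat hippocampal neurons. There, miR-134 restrains translation of the kinase Limk1 and limits spine size, miR-138 restrains the depalmitoylating enzyme Lypla1 and also limits spine size, and miR-188 restrains neuropilin-2. The miRNAs miR-134, miR-329 and miR-381 come from a cluster induced by the transcription factor Mef2 and are needed for activity-dependent dendrite growth. miR-485 restrains the synaptic vesicle protein Sv2a.

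The mature sequences below are those RefSeq gives (GRCm38.p6), with the seed in capitals. They are shown because the seed decides which messages a miRNA can reach. No 2 of these 5 share one, and the seed of miR-485 was not compared.

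miR-134-5p: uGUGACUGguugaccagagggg
miR-138-5p: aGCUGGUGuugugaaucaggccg
miR-188-5p: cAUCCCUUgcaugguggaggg
miR-329-3p: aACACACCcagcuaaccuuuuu
miR-381-3p: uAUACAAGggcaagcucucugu

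Among the mature mouse miRNAs of that table, the miR-329 seed is shared with miR-362-3p and the miR-188-5p seed with miR-7061-3p, which is not on the array. The probes of miR-485 match the 5p arm of the Mir485 hairpin.

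The array reads each miRNA through probes that pair with its 3′ end, and each miRNA has probes of several lengths. The longest probe of each member follows, with capitals at the bases that pair with the seed, because the stretch a probe reads differs between members.

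miR-134 probe: cccctctggtcaa
miR-188-5p probe: ccctccaccatgc
miR-138 probe: cggcctgattcacaa
miR-381 probe: acagagagcttgccC
miR-485 probe: gaattcatcacggccagc
miR-329 probe: aaaaaggttagctgGGTGTG

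The 13-base probe of miR-134 pairs with bases 10 to 22 and that of miR-188-5p with bases 9 to 21, so neither touches the seed. The 15-base probe of miR-138 pairs with bases 9 to 23. The 15-base probe of miR-381 reaches 1 seed base, and the 20-base probe of miR-329 reaches 6. No probe of a member matched any other mature mouse miRNA of the table. miR-134 and miR-188-5p have 4 probes each, of 10 to 13 bases, and the other members have 2 each.

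The hairpins of 4 members lie on the plus strand of chromosome 12 in the miR-379 to miR-410 cluster, which spans 34736 bases and holds 36 hairpins in the RefSeq table. Mir329 is at chr12:109713481-109713577, Mir381 at chr12:109726822-109726896, Mir134 at chr12:109734139-109734209 and Mir485 at chr12:109734902-109734974. Mir134 and Mir485 are only 692 bases apart. miR-138 has a pair of hairpins, Mir138-1 at chr9:122682876-122682974 and Mir138-2 at chr8:94324311-94324381, the second within the gene Nup93. Mir188 is at chrX:7247989-7248056 on the minus strand, within the chloride transporter gene Clcn5.

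Levels are log2 values of the fluorescence signal divided by a scaling value of the array, the 75th percentile over 433 probes that stood well above background on every one of the 9 arrays. That scaling value was 401 to 790 intensity units on the dark-reared, 601 to 641 on the monocularly deprived and 492 to 1022 on the control arrays. Log2 signals of arrays of 1 group correlated at r = 0.972 to 0.999 across miRNAs. The 3 monocularly deprived arrays sat by themselves on a different slide and scan from the other 6. In any comparison with monocularly deprived cortex, group and slide cannot be told apart. The bright corner control spots differed between the slides, with a median of 476 to 731 units on the monocularly deprived arrays, 8936 to 11410 on the dark-reared and 11166 to 15252 on the control arrays. In bulk tissue, fewer cells that hold a miRNA and less of it per cell cannot be told apart.

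After monocular deprivation 3 members changed, in opposite directions. miR-134 and miR-188-5p fell, miR-329 rose, and miR-138, miR-381 and miR-485 did not pass the test. Thus 1 of 6 members was called higher and 2 of 6 lower at an adjusted p under 0.05 (limma, Benjamini-Hochberg over 318 miRNAs), where 33% of all tested miRNAs were called, 15.7% higher and 17.3% lower. With a background that high, 3 calls in 6 are no result about the group. The median log2 difference of the 6 was 0.04, beside 0.08 for all tested miRNAs.

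miR-134, the Limk1 regulator, had log2 levels of -6.83, -7.66 and -7.11 in monocularly deprived cortex, against -6.43, -6.16 and -6.15 in control cortex. All 3 deprived arrays lay below all 3 control arrays, and deprived replicate 2 was the lowest. The mean was -7.20 ± 0.43 in monocularly deprived and -6.25 ± 0.16 in control cortex (SD, n = 3 each). The log2 difference was -0.96 (SE 0.20, limma adjusted p = 0.00834, 95% interval -1.40 to -0.51). Its size is uncertain, since just 1 of 3 arrays in each group had a probe well above background. The lowest deprived level, -7.66, also lay near the floor of -7.89, though no level was at it. With a floor at the 5th percentile of detected values the difference was -0.64 (limma adjusted p = 0.00152). The call held when each of the 9 arrays was left out in turn (adjusted p = 0.00341 to 0.0325). It was lost with scaling on all mouse miRNA probes (-0.44, adjusted p = 0.149), with quantile normalization (-0.09, adjusted p = 0.769), with normexp (-0.75, adjusted p = 0.591) and without scaling (-1.19, adjusted p = 0.0502).

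miR-188-5p, the neuropilin-2 regulator, had log2 levels of -5.80, -6.34 and -5.76 in monocularly deprived cortex, against -4.94, -5.44 and -5.24 in control cortex. The groups did not overlap, and deprived replicate 2 was again the lowest. The log2 difference was -0.76 (SE 0.18, limma adjusted p = 0.0151, 95% interval -1.18 to -0.34), a 1.69-fold lower level. Without control replicate 1, the control array where it was highest, the difference was -0.62 and the call was lost (adjusted p = 0.0507). It was also lost with scaling on all mouse miRNA probes (-0.25, adjusted p = 0.315) and with quantile normalization (-0.05, adjusted p = 0.803). The same held without scaling (-0.99, adjusted p = 0.1595), with normexp (-0.73, adjusted p = 0.591) and without the detection filter (-0.76, adjusted p = 0.0507).

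miR-329, of the Mef2-induced set, had log2 levels of -0.22, -0.02 and -0.34 in monocularly deprived cortex, against -0.59, -0.61 and -0.39 in control cortex. The groups did not overlap, but the lowest deprived and the highest control array were close. The log2 difference was 0.34 (SE 0.11, limma adjusted p = 0.0496, 95% interval 0.08 to 0.59), a 1.26-fold higher level at the edge of the threshold. The call was lost when any 1 of 6 arrays was left out: control replicates 1 and 2, dark-reared replicates 1 and 3 and deprived replicates 1 and 2, with differences of 0.25 to 0.41 and adjusted p of 0.0368 to 0.143 over the 9 arrays left out in turn. The difference was 0.85 with scaling on all mouse miRNA probes (adjusted p = 0.005), but the call was also lost without scaling (0.10, adjusted p = 0.999), with normexp (0.23, adjusted p = 0.591), without the detection filter (adjusted p = 0.0882), with only the 2 groups compared (adjusted p = 0.0777) and with the replicate block (adjusted p = 0.086).

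The other 3 members gave no call. miR-485, the Sv2a regulator, had log2 levels of -3.48, -3.11 and -3.42 in monocularly deprived cortex, against -3.73, -3.53 and -3.49 in control cortex, a difference of 0.25 (SE 0.11, adjusted p = 0.132, 95% interval -0.02 to 0.51). The groups did not overlap, but the lowest deprived value and the highest control value, -3.48 and -3.49, nearly met, and the interval reaches past 0. miR-381 had log2 levels of -1.74, -1.55 and -1.74 in monocularly deprived cortex, against -1.76, -1.72 and -1.91 in control cortex, with overlapping groups. Its difference was 0.12 (SE 0.085, adjusted p = 0.296, 95% interval -0.07 to 0.32).

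miR-138, the Lypla1 regulator, had the difference nearest 0 of the 6. Its log2 levels were -0.34, -0.66 and -0.38 in monocularly deprived cortex, against -0.36, -0.38 and -0.51 in control cortex. The groups overlapped, and the difference was -0.04 (SE 0.099, adjusted p = 0.792, 95% interval -0.27 to 0.19). In all, 4 of 6 members had groups that did not overlap, as had 52.8% of all tested miRNAs. With scaling on all mouse miRNA probes the difference of miR-138 turned to 0.47 (adjusted p = 0.0529), and those of miR-381 (0.64) and miR-485 (0.76) were called.

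**Figure D1:**
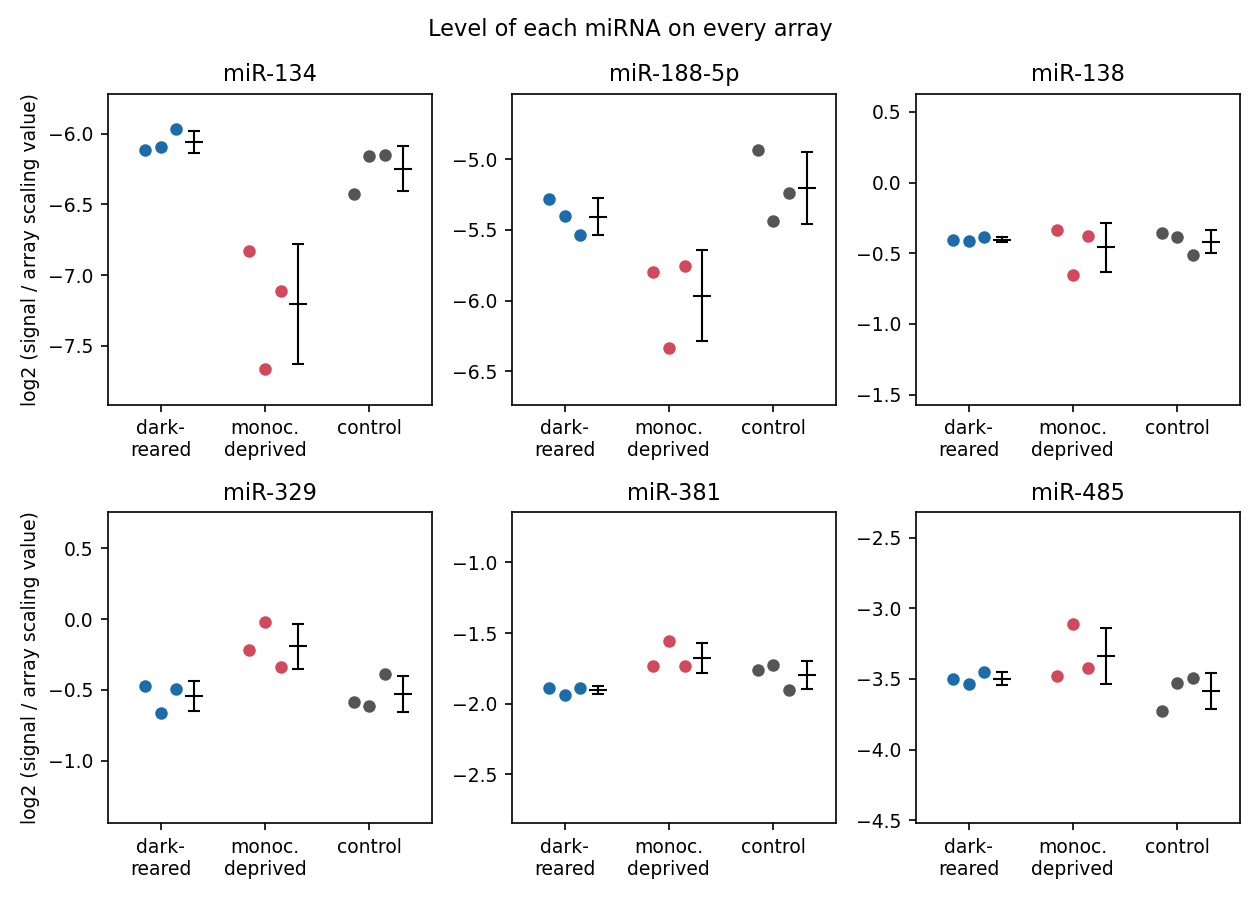
Log2 level of each of the 6 miRNAs (vertical axes, log2 of signal over the array's scaling value, each spanning the same range) on the 3 dark-reared, 3 monocularly deprived and 3 control arrays; points are arrays and bars are the mean ± SD (n = 3). The monocularly deprived points of miR-134 (-7.66 to -6.83) and miR-188-5p (-6.34 to -5.76) lie below those of both other groups, and those of miR-329 (-0.34 to -0.02) lie above both.

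Dark rearing moved none of the 6 members past the test: 0 of 6 were called, where 0.629% of the tested miRNAs were (limma, 2 of 318, with 28 at an unadjusted p under 0.05). The differences ran from -0.20 to 0.19 with a median of 0.0006, beside a median of 0.05 for all tested miRNAs. Each of the 6 intervals held 0.

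miR-134 had log2 levels of -6.11, -6.10 and -5.97 in dark-reared cortex, against -6.43, -6.16 and -6.15 in control cortex. The dark-reared arrays lay just above the control arrays without overlap, which happened in 18.6% of tested miRNAs and in this member alone of the 6. The difference was 0.19 (SE 0.20, adjusted p = 0.787, 95% interval -0.26 to 0.64), within the error. For the pairs of arrays that share a slide column, the dark-reared minus control difference was 0.32, 0.06 and 0.19.

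miR-188-5p had log2 levels of -5.28, -5.40 and -5.54 in dark-reared cortex, against -4.94, -5.44 and -5.24 in control cortex. Its groups overlapped, and the difference was -0.20 (adjusted p = 0.787, 95% interval -0.63 to 0.22). Within the slide columns it was -0.35, 0.04 and -0.30. Its interval, like that of miR-134, is wide enough to hold a shift of over 0.5 in 1 direction.

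The other 4 members had narrower intervals. miR-329 had log2 levels of -0.47, -0.66 and -0.49 in dark-reared cortex, a difference from control of -0.01 (adjusted p = 0.958, 95% interval -0.27 to 0.24). miR-138 had -0.41, -0.42 and -0.39 in dark-reared cortex, with a difference of 0.01 (adjusted p = 0.947, 95% interval -0.21 to 0.24). These are the members whose dark-reared and control means came closest.

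miR-381 had log2 levels of -1.89, -1.93 and -1.89 in dark-reared cortex, a difference from control of -0.11 (adjusted p = 0.739, 95% interval -0.30 to 0.09). miR-485 had -3.50, -3.54 and -3.45 in dark-reared cortex, a difference of 0.09 (adjusted p = 0.818, 95% interval -0.18 to 0.35). Both overlapped with control. The replicate block, which pairs these arrays by number, changed no member's call in this comparison.

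**Figure D2:**
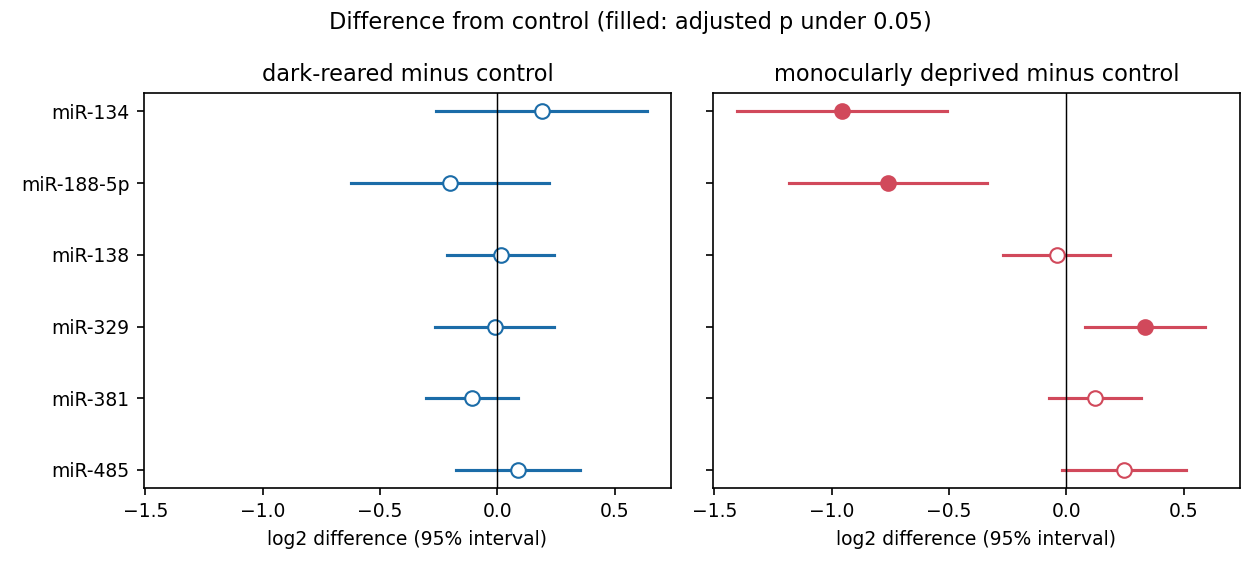
Log2 difference from control (horizontal axes) of each miRNA in dark-reared (left) and monocularly deprived cortex (right), with 95% intervals from limma; filled points have an adjusted p under 0.05. The 6 dark-reared differences lie between -0.20 and 0.19 with every interval across 0, and the monocularly deprived ones run from -0.96 for miR-134 to 0.34 for miR-329.

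The 2 deprivations were then set against each other directly, which tests whether a member differed between them. miR-134 was higher in dark-reared than in monocularly deprived cortex by 1.14 log2 units (SE 0.20, limma adjusted p = 0.00426), with all 3 dark-reared arrays above all 3 deprived ones. This size is uncertain too, and was 0.83 with the higher floor. The scanner program called miR-134 detected on 1 of 3 dark-reared, 3 of 3 deprived and 3 of 3 control arrays. miR-329 was lower in dark-reared cortex by the same test, with a difference of -0.35 (SE 0.11, adjusted p = 0.0473). These were 2 of 6 members called, 1 higher and 1 lower, where 28.6% of tested miRNAs were called, 18.9% higher and 9.75% lower. The groups did not overlap in 4 of 6 members, miR-134, miR-188-5p, miR-329 and miR-381, where 46.5% of tested miRNAs had no overlap.

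For the other members this direct comparison gave no call. The difference was 0.56 for miR-188-5p (adjusted p = 0.0538, 95% interval 0.13 to 0.98) and -0.23 for miR-381 (adjusted p = 0.0769, 95% interval -0.42 to -0.03). It was -0.16 for miR-485 (adjusted p = 0.328) and 0.05 for miR-138 (adjusted p = 0.694). A difference of miR-188-5p between the deprivations was therefore not shown. Over all 3 groups, the order of levels was dark-reared, control and monocularly deprived for miR-134, and control, dark-reared and monocularly deprived for miR-188-5p, and in both the first 2 did not differ beyond their error. miR-329 and miR-381 had the order monocularly deprived, control and dark-reared, miR-485 the order monocularly deprived, dark-reared and control, and miR-138 the order dark-reared, control and monocularly deprived, and apart from miR-329 between monocularly deprived and control cortex no neighbours in these orders were shown to differ.

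The members that fell gave signals close to background. Before scaling, miR-134 gave 11.4, 5.86 and 12.3 intensity units on the dark-reared, 5.48, 3.16 and 4.34 on the monocularly deprived and 11.9, 6.90 and 10.9 on the control arrays. The array carries 182 negative control spots, and their 99th percentile was 17.6, 59.96 and 10.3 units on the dark-reared, 26.5, 10.8 and 12.7 on the deprived and 20.3, 6.10 and 6.95 on the control arrays. The miR-134 signal, an average over its spots set here against single control spots, exceeded that percentile on 1 of 3 dark-reared, 0 of 3 deprived and 2 of 3 control arrays. Of the 318 tested miRNAs, 60 to 107 lay at or below it on the deprived and 15 to 49 on the control arrays. On the dark-reared arrays 52, 165 and 30 did, the most on replicate 2, whose percentile was the highest.

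miR-188-5p gave 20.3, 9.47 and 16.6 units on the dark-reared, 11.2, 7.93 and 11.1 on the monocularly deprived and 33.4, 11.3 and 20.4 on the control arrays. It exceeded the negative control percentile on 2 of 3 dark-reared, 0 of 3 deprived and 3 of 3 control arrays. A probe was well above background, by the scanner program's own test, on 1 of 3 arrays of each group for miR-134 and on 1 dark-reared, 2 deprived and 3 control arrays for miR-188-5p. Their fold changes therefore rest partly on signals not separated from background. miR-138, miR-329 and miR-381 exceeded the percentile on all 9 arrays, and miR-485 on all but dark-reared replicate 2.

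**Figure D3:**
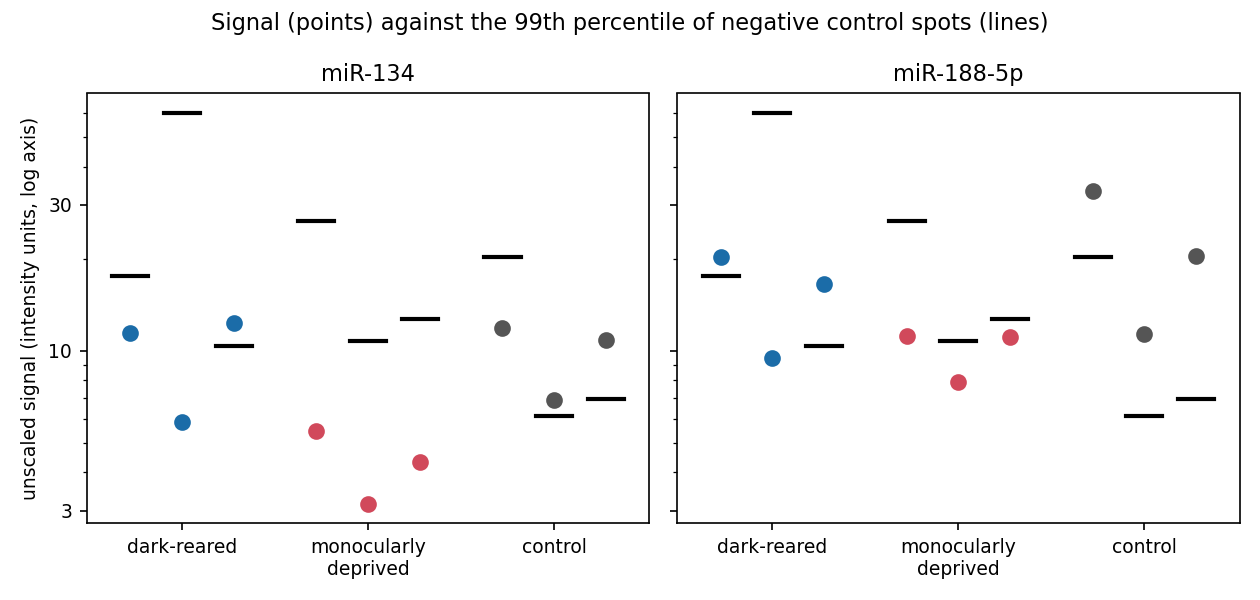
Unscaled signal of miR-134 (left) and miR-188-5p (right) on each array in intensity units on a log axis (points, replicates 1 to 3 from left to right in each group), with the 99th percentile of the array's 182 negative control spots as a line. On the monocularly deprived arrays every point lies under its line, and on the control arrays 2 of 3 points of miR-134 and 3 of 3 of miR-188-5p lie above it.

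Low signal and direction went together across the array in this comparison. The tested miRNAs were split into 4 groups by mean level. Among the 80 of lowest level, which include miR-134 and miR-188-5p, 8 were called higher and 24 lower in monocularly deprived cortex, with a median log2 difference of -0.29. In the group above the middle, which holds miR-381, 19 were higher and 7 lower, with a median of 0.16. The group of miR-485 had 14 higher and 18 lower, and the group of highest level, of miR-138 and miR-329, had 9 and 6. In dark-reared cortex the 80 of lowest level had 0 calls and a median of 0.06. What part signal level had in these 2 falls was not tested.

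The single probes show which part of each value moved. For miR-134 in monocularly deprived against control cortex, the 13-base probe differed by -0.33, the 12-base probe by -0.61, the 11-base probe by -1.46 and the 10-base probe by -0.36 log2 units. The 11-base and 10-base probes were at the floor of -7.89 on all 3 deprived arrays, and no array of any group held either well above background. The 10-base probe was at the floor on control replicate 1 as well, so the floor limits its difference. Here the floor was applied to single probes, whereas the miRNA level averages the probes before the floor. The 13-base probe averaged 14.4 units in dark-reared, 11.7 in deprived and 18.2 in control cortex, and with this probe alone the difference was not called (-0.33, adjusted p = 0.0897).

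For miR-188-5p all 4 probes lay lower in monocularly deprived cortex without overlap, by -0.69, -0.63, -0.98 and -0.82 for 13, 12, 11 and 10 bases. Its 13-base probe averaged 21.5 units in dark-reared, 14.8 in deprived and 29.5 in control cortex. With that probe alone, miR-188-5p kept its call (adjusted p = 0.0216). All 4 probes of this member thus shared 1 direction. Each of them holds the bases of the 10-base probe, so they are not independent readings.

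Each member with 2 probes had the lower difference in its shorter one. The monocularly deprived minus control difference was 0.23 for the 19-base and 0.37 for the 20-base probe of miR-329, 0.19 and 0.26 for the 17-base and 18-base probes of miR-485, and -0.15 and 0.01 for the 14-base and 15-base probes of miR-138. For miR-381 the probes disagreed in sign, at -0.19 for 14 bases and 0.15 for 15. The 14-base probe of miR-381 averaged 29.9 units in deprived and 41.9 in control cortex, and the 15-base probe 361 and 396.

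This ordering was common on the arrays. Among 185 tested miRNAs with probes of different length well above background on all 9 arrays, the shortest probe had a lower monocularly deprived minus control difference than the longest in 90.3%, with a median gap of -0.12. For dark-reared minus control the share was 78.4% and the median gap -0.04. The shortest probe was also dimmer than the longest in 177 of the 185, so probe length and signal level cannot be told apart here. The gaps of the members were -0.34 for miR-381, -0.16 for miR-138 and -0.14 for miR-329.

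**Figure D4:**
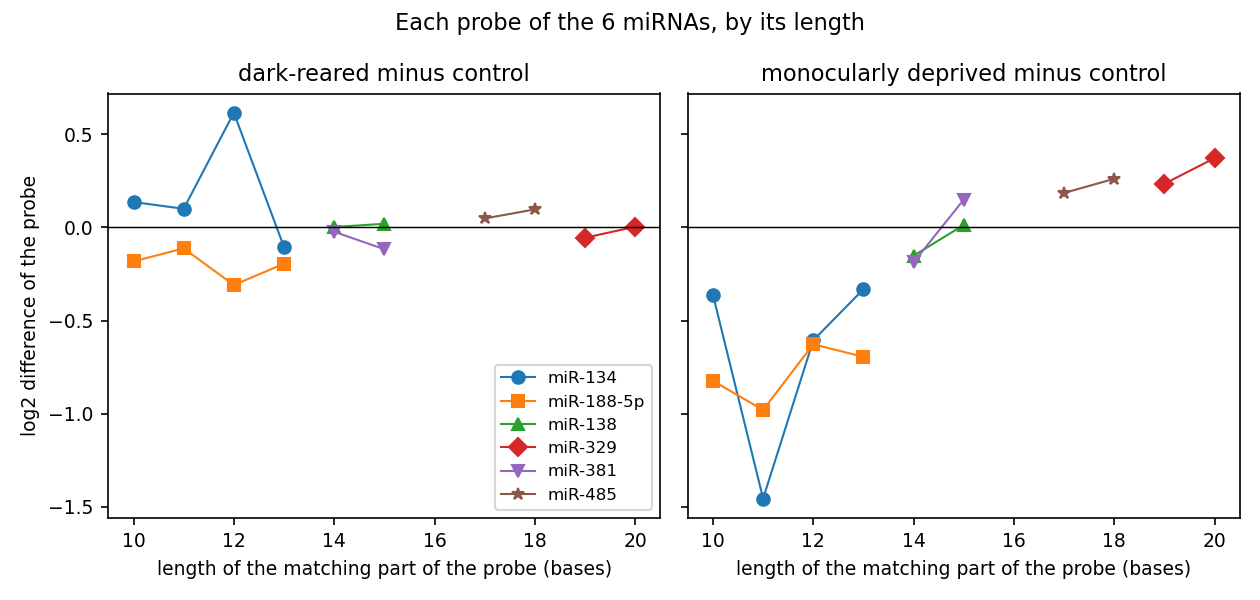
Log2 difference from control of every probe of the 6 miRNAs (vertical axis) against the length of its matching part in bases (horizontal axis), for dark-reared (left) and monocularly deprived cortex (right); a line joins the probes of 1 miRNA. On the right, the probes of 10 to 13 bases of miR-134 and miR-188-5p lie between -1.46 and -0.33, and those of 17 to 20 bases of miR-485 and miR-329 between 0.19 and 0.37.

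The array also measures the opposite strand of 3 of these hairpins, named with a star or an arm. miR-138*, which matches the 3p arm of Mir138-1, had log2 levels of -3.83, -3.58 and -3.82 in dark-reared, -4.10, -4.32 and -4.26 in monocularly deprived and -3.98, -3.70 and -3.68 in control cortex. It fell in monocularly deprived cortex (log2 difference -0.44, SE 0.12, limma adjusted p = 0.0216), with all deprived arrays below all control arrays, while miR-138 from the other arm differed by -0.04. Its 12-base probe differed by -1.14 and its 13-base probe by -0.24. The 13-base probe, the brighter, overlapped between these groups. Among the deprived arrays, the 12-base probe was well above background on replicate 1 alone. Dark-reared and control levels differed by 0.04 (adjusted p = 0.921).

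miR-485* was dim and scattered, with a log2 difference of 0.78 for dark-reared minus control (adjusted p = 0.728) and -0.70 for monocularly deprived minus control (adjusted p = 0.375), each with an SE of 0.59. Its signal exceeded the negative control percentile on 1 of 3 dark-reared, 0 of 3 deprived and 1 of 3 control arrays. miR-188-3p was not tested, since it was not called detected on all arrays of any group, and it lay at the floor on all 3 deprived arrays.

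In the chromosome 12 cluster the 4 members can be set beside their neighbours. Of 33 other miRNA names of the cluster on the array, 26 were tested. In monocularly deprived cortex 5 of these were called higher and 1 lower than control, or 19.2% and 3.85%, beside 15.7% and 17.3% of all tested miRNAs. Their median log2 difference was 0.16, with a range of -0.75 to 0.42, beside a median of 0.08 for all. miR-329, miR-381 and miR-485 had 0.34, 0.12 and 0.25, inside that range, and miR-134 had -0.96, below it.

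miR-382, whose hairpin is the nearest tested neighbour of Mir134 on the 5′ side, differed by 0.23 (adjusted p = 0.074), and miR-485 on the other side by 0.25. The neighbours called higher were miR-411 (0.34, adjusted p = 0.0112), miR-380-3p (0.40), miR-323-3p (0.42), miR-154 (0.25) and miR-409-5p (0.30, adjusted p = 0.0471). The neighbour called lower was miR-667 (-0.75, adjusted p = 0.000822), with a control level of -6.56. Other neighbours near or below that level were not called. These were miR-539 (control level -6.28, difference 0.10), miR-380-5p (-7.71, 0.11) and miR-299 (-7.89, the floor, 0.23). In dark-reared cortex 0 of the 26 neighbours were called, with a median of -0.03. These neighbours were named after their values were seen.

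**Figure D5:**
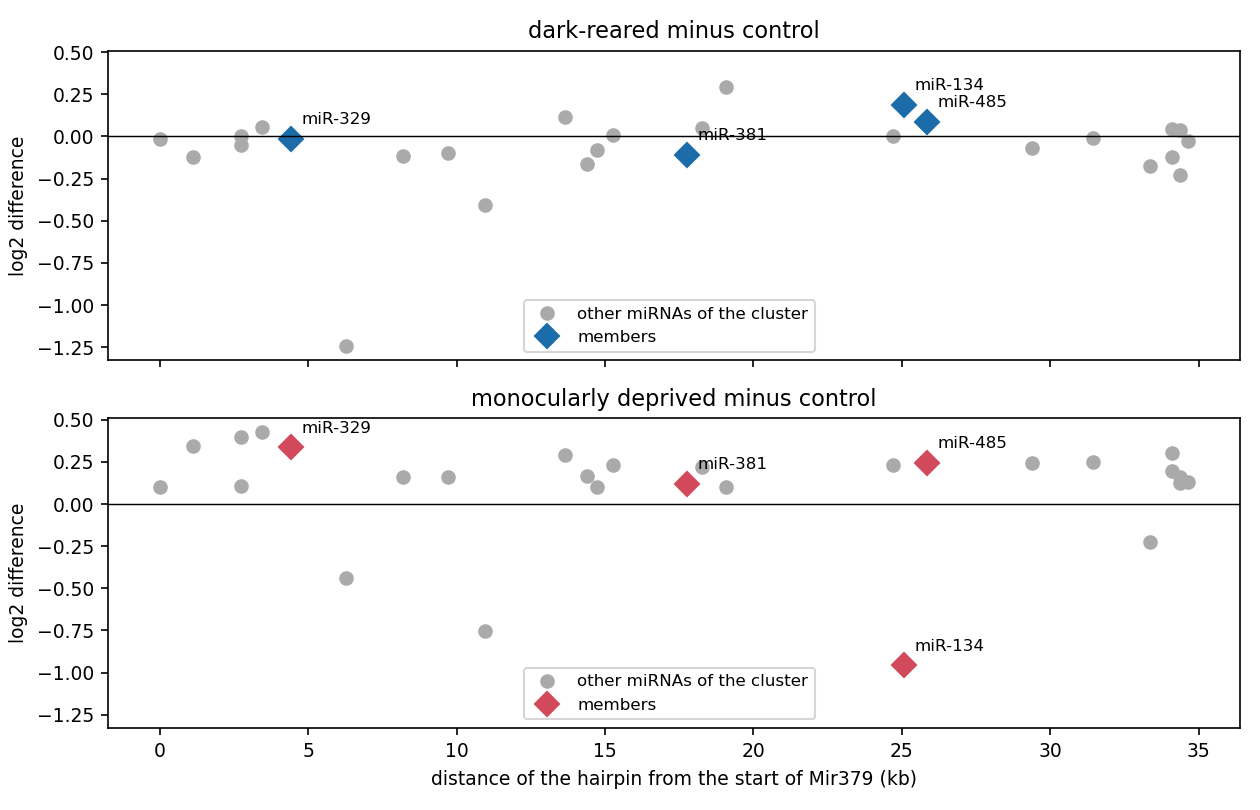
Log2 difference from control (vertical axes) of the tested miRNAs of the miR-379 to miR-410 cluster against the distance of their hairpin from the start of Mir379 in kb, for dark-reared (top) and monocularly deprived cortex (bottom); diamonds are the 4 members and grey points 24 of the 26 other tested miRNAs, those matched to a hairpin by name. In monocularly deprived cortex most points lie between 0.10 and 0.42, with miR-134 at -0.96, apart from the members around it.

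At the Mir188 locus the neighbours also differed from the member. Mir532, 413 bases away, gives miR-532-5p, which was higher in monocularly deprived cortex (log2 difference 0.31, SE 0.075, adjusted p = 0.0139), and miR-532-3p, which did not pass (0.25, adjusted p = 0.266). From the same stretch miR-362-3p was higher (0.42, adjusted p = 0.0158), as was miR-500 (0.37, adjusted p = 0.0133), and miR-362-5p did not pass (0.13, adjusted p = 0.774). So 3 of the 5 tested neighbours within 20 kb were called higher, beside 15.7% of all tested miRNAs. miR-188-5p, at -0.76, was called lower, as were 17.3% of all. The control levels of the called miR-500, miR-362-3p and miR-532-5p were -2.36, -3.37 and -3.59. Those of miR-532-3p and miR-362-5p, which did not pass, were -5.59 and -6.66, and that of miR-188-5p was -5.21. The 2 arms of Mir501 were not tested. None of the 5 passed in dark-reared cortex, with differences of -0.37 to 0.09. This locus was looked up after the values of miR-188-5p were known.

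miR-362-3p is also the 1 tested miRNA found to share a seed with a member, where the seed of miR-485 was not compared. Its seed, ACACACC, is that of miR-329, and it rose beside miR-329 in monocularly deprived cortex, by 0.42 against 0.34, while in dark-reared cortex both lay near control at 0.04 and -0.01. The pair come from different chromosomes, X and 12, and their probes are not shared.

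For each member the tested miRNAs of most similar profile were sought, by the root mean square difference of centred log2 levels over the 9 arrays. miR-329 was nearest to miR-382* (0.051) and miR-377 (0.059), both named after hairpins of the chromosome 12 cluster. miR-485 was nearest to miR-300 (0.061), of the cluster, and miR-331-3p (0.066). miR-381 was nearest to miR-185 (0.069) and to miR-154 (0.078), of the cluster.

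miR-138 was nearest to miR-26a (0.121) and miR-125b-5p (0.125), distances larger than its own SD of 0.09 over the arrays, whose levels were nearly flat. miR-188-5p was nearest to miR-222 (0.192) and miR-1198 (0.202), which differed from control in monocularly deprived cortex by -0.80 and -0.84. miR-134 was nearest to miR-145 (0.178) and miR-135a (0.179), at -1.24 and -1.21 in that comparison. The 9 points of such a profile share their slides and scaling, and the likeness is a description.

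Among 23 other miRNAs reported to act at synapses or to follow activity, 21 were tested. In monocularly deprived cortex 2 were called higher and 4 lower than control. That is 28.6% of them, no more than the 33% of all tested miRNAs. The median log2 difference was -0.05, beside 0.08 for all. Those lower were miR-212 (-1.26, adjusted p = 4.39e-05) and miR-132 (-0.51, adjusted p = 0.0497), which share a CREB-driven transcript, miR-135a (-1.21, adjusted p = 0.000899) and the neuronal miR-9 (-0.50, adjusted p = 0.00223). Those higher were miR-92a (0.53, adjusted p = 0.0259) and the oligodendrocyte miR-219 (0.59, adjusted p = 0.0389).

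In dark-reared cortex 0 of the 21 were higher and 1 was lower, miR-132 (-1.17, adjusted p = 0.0365), and miR-212 did not pass (-0.45, adjusted p = 0.174). Of all tested miRNAs 0.314% were called higher and 0.314% lower. This call of miR-132 was lost when any 1 control or dark-reared array, or deprived replicate 1, was left out. It was also lost without scaling, with normexp and with the higher floor. The median was -0.003. The 6 spine members, at -0.20 to 0.19, gave no call in this comparison.

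Of 23 tested markers of cell types, 7 were called in monocularly deprived against control cortex, or 30.4%, near the 33% of all tested miRNAs. Of 2 astrocyte markers 0 were called. Of 4 neuronal markers 1, miR-9, was called lower. Of 4 vascular markers 2 were called lower, although their summed scaled signal was 1.94 to 2.11 in deprived and 1.77 to 1.97 in control cortex. Of 4 tested choroid plexus and epithelial markers 2 were called higher, with a sum of 0.866 to 0.922 in deprived and 0.707 to 0.782 in control cortex, where miR-449a was at the floor. Of 2 oligodendrocyte markers 1 was called higher, with a sum of 3.04 to 3.69 in deprived and 2.43 to 3.12 in control cortex. Of 4 microglial and leukocyte markers 1 was called lower, and of 3 red blood cell markers 0 were called, with a sum of 2.69 to 3.00 in deprived and 1.33 to 2.56 in control cortex. In dark-reared cortex 1 epithelial marker was called higher, with a sum of 0.936 to 1.24. The part of these cells in the members' values was not tested.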

How the data were processed

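Each sample's total RNA, Cy3-labelled, was read on its own Agilent mouse miRNA array. The deposited files hold fluorescence intensity for each spot; the program was Feature Extraction 10.1.1.1, which subtracted background, per the file headers, and the authors' deposited matrix equals that processed intensity within 1e-05 for 100% of spots. Spots called outliers (367 to 638 of 13000 per array) were left out. Spots were averaged per probe, scaled to the 75th percentile of 433 always-detected probes, averaged over the probes of a miRNA, raised to a floor (the 1st percentile of detected values) and log2 transformed. The number of arrays limits the precision.

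A linear model with a mean for each of 3 groups was fitted over the 9 arrays in limma 3.58.1 (R 4.3.3), leaving 6 residual degrees of freedom, and was tested on simulated data, with Benjamini-Hochberg adjustment over 318 miRNAs. Calls have an adjusted p under 0.05. Groups came from the sample titles. Same-numbered dark-reared and control arrays share a slide column, and their deviations correlated at r = 0.887, 0.324 and 0.815 across miRNAs. Control replicate 2 was closer to dark-reared replicate 3 (r = 0.615), so pairing by number is clear only for replicates 1 and 3. The main fit does not use these pairs. Monocularly deprived numbers do not pair. Planned for naming were the 6 members, the other strand of their hairpins, the 2 nearest profiles of each, called members of the synapse list and the cell type markers. Neighbours in the chromosome 12 cluster and at the Mir188 locus were named in addition, after values were seen. Members and lists were chosen with earlier results of these data known. Alternatives changed scaling, background correction, probe summary, floor, filter, block and arrays.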

Additional observations from a re-analysis of the deposited data

Results flagged for a closer look

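The effects of the 2 deprivations differed from each other for 2 members, by the direct limma test of dark-reared against monocularly deprived cortex. miR-134 was 1.14 log2 units higher in dark-reared cortex (adjusted p = 0.00426), where its difference from control was 0.19, against -0.96 in monocularly deprived cortex. The size for miR-134 is uncertain, because just 1 of 3 arrays in each group had a probe well above background. miR-329 was lower in dark-reared cortex by -0.35 (adjusted p = 0.0473), with differences from control of -0.01 and, in monocularly deprived cortex, 0.34. The difference for miR-329 was called in 9 of 22 alternatives and that for miR-134 in 15 of 20. Monocularly deprived arrays were alone on slide 2, so slide and group cannot be told apart.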

How the results depend on the processing

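Dark-reared minus control gave 0 called members in all 23 alternatives. The monocularly deprived minus control count of 3 was 0 without scaling and with normexp, 1 without the filter on detection, 1 with only probes well above background on all 9 arrays (an alternative chosen after seeing the data, which leaves out miR-134 and miR-188-5p) and 1 to 3 when 1 array was left out, with 1 without control replicate 1. Scaling on all mouse miRNA probes also called 3, but these were miR-329, miR-381 and miR-485, all higher; it moved the median of all miRNAs to 0.58, against 0.08. Relative to that median miR-134 stood at -1.02, against -1.03 in the first scaling. A change of scaling value shifts all miRNAs of an array alike, so this likeness was set in advance. With quantile normalization miR-134 stood at -0.25 relative to the median. Scaling on all mouse miRNA probes split all tested miRNAs into 189 higher and 33 lower calls, against 50 and 55 in the first scaling. Quantile normalization gave 84 and 36, no scaling 0 and 36 and normexp 0 and 2. The call of miR-134 was kept in 15 of 20 alternatives and lost with scaling on all probes (-0.44), quantile normalization (-0.09), no scaling (-1.19, adjusted p = 0.0502), normexp and the brightest probe. That of miR-188-5p was kept in 15 of 21 and that of miR-329 in 11 of 22. miR-134 has no value where detection on all 9 arrays is required.

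The dark-reared minus monocularly deprived count of 2 was 4 with scaling on all probes, 0 without scaling, with normexp and with the brightest probe, and 1 with detection on all 9 arrays, without the filter, with only the 2 groups compared and with only probes well above background throughout; leaving out 1 array gave 1 to 2, the lower count without control replicate 2, any dark-reared array or deprived replicate 1 or 2. With quantile normalization it was 3 and with a higher floor 3. The replicate block called 2 members in that comparison, miR-134 and miR-188-5p (adjusted p = 0.0319), and not miR-329 (0.0854). In monocularly deprived minus control the block ended the call of miR-329 (adjusted p = 0.086) and changed no other member's call. Monocularly deprived numbers do not pair with the others (r = -0.385 to 0.213).

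Signs turned for small differences. In monocularly deprived minus control, miR-138 was 0.47 with scaling on all probes, 0.013 with the brightest probe and -0.10 to 0.058 with 1 array left out, the last without deprived replicate 2. In that comparison miR-381 was -0.11 without scaling and -0.14 with normexp, and miR-485 was -0.39 with normexp. In dark-reared minus control, scaling on all probes gave -0.13 for miR-138 and -0.053 for miR-485, and quantile normalization gave -0.025 for miR-134 and -0.017 for miR-485. No scaling gave -0.036 for miR-134, -0.21 for miR-138 and -0.14 for miR-485, and normexp gave -0.0049 for miR-134, 0.00070 for miR-188-5p and -0.033 for miR-485. The brightest probe gave -0.11 for miR-134 and 0.0038 for miR-329. With 1 array left out, miR-138 ran from -0.034 (without control replicate 3) to 0.0445, and miR-329 from -0.055 to 0.059 (without control replicate 3), with 0.048 without dark-reared replicate 2. In dark-reared minus monocularly deprived, miR-138 was -0.60 with scaling on all probes (adjusted p = 0.017) and -0.044 (without deprived replicate 2) to 0.115 with 1 array left out. There miR-188-5p was -0.096 with scaling on all probes and -0.30 with quantile normalization, and normexp gave 0.060 for miR-381 and 0.36 for miR-485. The cause of these changes was not tested.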
